A study of Mus musculus with 9 samples.

Results

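The 10 genes described here carry peptide presentation by major histocompatibility complex (MHC) class I. They are H2-K1, H2-D1, B2m, Tap1, Tap2, Tapbp, Psmb8, Psmb9, Psmb10 and Nlrc5, taken by gene symbol from a table of 24532 genes, and all 10 were present and passed the filter on low values. Every nucleated cell cuts cytosolic proteins to peptides with the proteasome, moves the peptides into the endoplasmic reticulum through the TAP transporter, and loads them onto a class I heavy chain paired with beta-2-microglobulin for display to CD8+ T cells. The immunoproteasome is a form of the proteasome in which interferon-inducible catalytic subunits replace the constitutive ones, and Nlrc5 is a transactivator that drives class I promoters. Dendritic cells also route captured antigen into this pathway, which is called cross-presentation and is a known strength of type 1 dendritic cells.

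RNA was sequenced from MHCII+ myeloid cells flushed out of the peritoneum of 8-week-old C57BL/6 mice, with no treatment or genetic change named in the labels. PcDC1 and PcDC2 are labelled type 1 and type 2 peritoneal dendritic cells and come from the CD11c+ CD115- gate. P-IV.I, labelled peritoneal dendritic cells, and P-IV.II, labelled small peritoneal macrophages, both come from the CD11c+ CD115+ gate, and SPM, also labelled small peritoneal macrophages, are CD11c- CD115+. CD11c is an integrin found on dendritic cells, and CD115 is the receptor for macrophage colony-stimulating factor. PcDC1 had 1 library and each of P-IV.I, PcDC2, P-IV.II and SPM had 2. The sources used here do not say whether the libraries of a group came from separate animals or sorts, so a p-value here measures only how these libraries vary, which may be technical.

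Values are FPKM, fragments scaled by transcript length and by the mapped total, and the read depth behind them is unknown. FPKM totals ranged from 439597 to 647385 per library, and 9115 to 9847 genes per library reached an FPKM of 1. The labels were set beside marker genes. Csf1r, which encodes CD115, was among the macrophage markers, and Itgax, which encodes CD11c, among the dendritic cell markers. Cells were sorted on both proteins, so the gates fixed part of each sum. Csf1r averaged 201 FPKM in P-IV.I, 5.97 in PcDC2, 310 in P-IV.II and 608 in SPM. The 8 macrophage markers summed to 425 FPKM in PcDC1, 702 to 765 in P-IV.I, 378 to 381 in PcDC2, 2198 to 2470 in P-IV.II and 5466 to 7929 in SPM. A few genes carried these sums: Cd68 had 412 FPKM in PcDC1 and averaged 344 in PcDC2, and C1qb averaged 2994 in SPM. Fcgr1, also on the list, averaged 0.370 in P-IV.II, below the 0.692 of P-IV.I, and 4.84 in SPM. The 8 dendritic cell markers as a sum ran opposite to the macrophage sum, at 532 to 924 FPKM in the dendritic cell libraries against 50.9 to 211 in the macrophage libraries. Cd24a, 1 of them, did not follow the labels. It had 566 FPKM in PcDC1 and averaged 68.7 in P-IV.I, 34.4 in PcDC2, 119 in P-IV.II and 30.7 in SPM. The 8 type 1 dendritic cell markers summed to 2147 FPKM in PcDC1 and to at most 231 in any other library. Of these, Batf3 had 225 FPKM in PcDC1 and averaged 49.0 in P-IV.I, 37.6 in PcDC2, 104 in P-IV.II and 60.2 in SPM. The 6 type 2 dendritic cell markers summed to 31.7 FPKM in PcDC1, 3393 to 3727 in P-IV.I and 2424 to 2577 in PcDC2. They still summed to 1380 to 1798 in P-IV.II and 1182 to 1204 in SPM. Mgl2 of that list averaged 480 in P-IV.II against 334 in PcDC2, and Itgam was highest in SPM, at 366. In these bulk samples, fewer cells of a type and less RNA per cell cannot be told apart.

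The libraries differed in how FPKM ran with transcript length, and this has to be seen before the short genes among the 10 are read. For genes under 700 bases the median deviation from the gene's mean over libraries was 1.76 on the log2 scale in PcDC1, -0.69 in P-IV.I replicate 2 and -0.75 in SPM replicate 2, and it lay between -0.27 and 0.30 in the other libraries. For genes of 3000 to 5000 bases it was -0.73 in PcDC1. For several results below, the median of the length class, a value corrected for length or a value without these libraries is given beside the reported one.

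**Figure D1:**
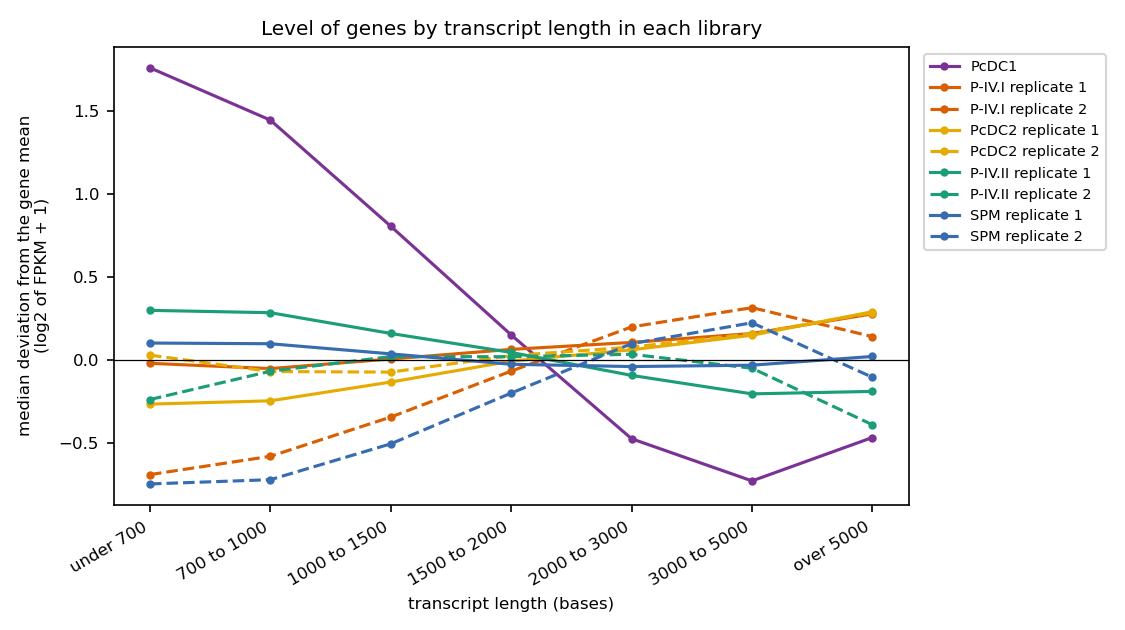
Median deviation of the tested genes from their own mean over the 9 libraries (vertical axis, log2 of FPKM + 1) by class of transcript length in bases (horizontal axis), with a line for each library and dashed lines for the second replicate. PcDC1 runs from 1.76 for genes under 700 bases to -0.73 for genes of 3000 to 5000 bases, and P-IV.I replicate 2 and SPM replicate 2 lie lowest for the shortest genes, at -0.69 and -0.75.

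Several of these genes lie close together. On mouse build GRCm38.p6 the RefSeq annotation places Tapbp (Entrez 21356) at chromosome 17, 33919478 to 33929290, H2-K1 (14972) at 33996012 to 34000619 and H2-D1 (14964) at 35263094 to 35267497 of the same chromosome. Between the heavy chain genes stands a cluster that alternates transporter and proteasome genes: Psmb9 (16912) at 34182030 to 34187330, Tap1 (21354) at 34187556 to 34197225, Psmb8 (16913) at 34198195 to 34201454 and Tap2 (21355) at 34204479 to 34216321. B2m (12010) lies outside the complex, at chromosome 2, 122147687 to 122153082. Psmb10 (19171) at 105935728 to 105938392 and Nlrc5 (434341) at 94434335 to 94527272 are on chromosome 8. The annotation overlaps B2m with Patl2, Tapbp with Gm19412, and Nlrc5 with 9330175E14Rik, Gm51584 and Mir7072, and since strand use in the counting is not given, reads of overlapping genes may not be told apart.

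The stretches upstream of the genes are shown because the heavy chain promoters are close copies of each other and because Tap1 and Psmb9 start back to back from a single short segment. Sequences of 8 of the 10 genes were found in the RefSeq promoter table of GRCm38.p6. The first pair gives the 250 bases before a transcript start of H2-K1 (chr17:34000348-34000597, minus strand), which lies inside the extent given above for the gene, and before that of H2-D1 (chr17:35262844-35263093, plus strand), followed by those of B2m (chr2:122147437-122147686, plus strand) and the 225 bases between the starts of Psmb9 and Tap1 (chr17:34187331-34187555, plus strand, read towards Tap1). Capitals mark matches on either strand to GGGNNTTCC (the NF-kappaB motif), GAANNGAAA or GAAANNGAA (cores of the interferon-stimulated response element in 2 spacings, which can overlap, the second added after seeing the sequences), TGACG (the core of the class I X2 box) and CCAAT (the Y box core), where N is any base. Sequences run 5′ to 3′.
H2-K1: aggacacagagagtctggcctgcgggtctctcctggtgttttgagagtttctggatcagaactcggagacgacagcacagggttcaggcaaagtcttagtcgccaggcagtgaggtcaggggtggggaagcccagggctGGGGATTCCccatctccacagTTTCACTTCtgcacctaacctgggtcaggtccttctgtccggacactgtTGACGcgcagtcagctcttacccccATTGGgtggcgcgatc
H2-D1: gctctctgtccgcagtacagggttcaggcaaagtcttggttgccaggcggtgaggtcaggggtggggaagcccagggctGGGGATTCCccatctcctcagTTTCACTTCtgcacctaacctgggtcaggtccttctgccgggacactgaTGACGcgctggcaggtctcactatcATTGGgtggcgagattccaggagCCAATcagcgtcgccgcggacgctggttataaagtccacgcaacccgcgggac
B2m: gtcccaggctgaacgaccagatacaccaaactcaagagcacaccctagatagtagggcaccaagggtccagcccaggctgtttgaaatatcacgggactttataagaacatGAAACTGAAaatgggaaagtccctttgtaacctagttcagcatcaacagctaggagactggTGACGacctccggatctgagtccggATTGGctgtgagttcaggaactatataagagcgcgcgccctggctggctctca
Tap1-Psmb9: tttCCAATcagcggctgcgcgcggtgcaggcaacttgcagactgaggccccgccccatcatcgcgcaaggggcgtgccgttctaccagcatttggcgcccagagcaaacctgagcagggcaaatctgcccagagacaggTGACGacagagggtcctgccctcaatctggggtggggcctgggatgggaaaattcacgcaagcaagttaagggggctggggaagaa

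Over the aligned 177 bases, the H2-K1 and H2-D1 stretches share 161 bases, 91%. Each holds 1 NF-kappaB, 1 interferon element and 1 X2 match in the same order, and 1 CCAAT match follows in the aligned part. The H2-D1 window runs on past the end of the H2-K1 window and holds another CCAAT match there. B2m holds 1 interferon element match in the second spacing, 1 X2 and 1 CCAAT match, and the Tap1-Psmb9 segment 1 X2 and 1 CCAAT match. Tapbp has 2 CCAAT matches, and none of these motifs was found before Psmb8 or Psmb10. Among 27025 promoters of the same 250-base length, the NF-kappaB motif was found in 4.88%, the interferon element in 6.34% in the first spacing and 7.16% in the second, TGACG in 17.9% and CCAAT in 34.5%. A match is a description of the letters and not evidence of binding. Only these exact strings were searched, and other forms of the motifs, NF-kappaB sites among them, were not marked. The lack of a match, as for NF-kappaB before B2m, therefore does not show that an element is absent.

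The heavy chains and beta-2-microglobulin were among the most abundant transcripts of every group, and none of them separated dendritic cells from macrophages. Together H2-K1, H2-D1 and B2m made up 1.10% to 1.69% of the FPKM total of a library, beside 3.78% to 7.80% for the 3 class II genes that mark the sort. H2-K1 and H2-D1 have close paralogs in the H2-Q and H2-T families, so reads may have been divided among near-identical copies and the values of each are uncertain.

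H2-D1, a classical class I heavy chain, had 2528 FPKM in PcDC1, 3629 and 3868 in P-IV.I, 4040 and 4213 in the PcDC2 libraries, 4128 and 3993 in P-IV.II, and 5094 and 4630 in SPM. SPM were highest and PcDC1 lowest, and the SPM libraries did not overlap with those of any other group. It ranked between 5 and 19 among all genes of a library. A log2 fold change is given throughout as the first-named group minus the second. None of these differences passed: P-IV.I against SPM, at -0.37 ± 0.28 on the log2 scale (SE, n = 2 each), had an adjusted p of 0.489 by limma.

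H2-K1, the other classical heavy chain of this strain, had 860 FPKM in PcDC1, 1326 and 956 in P-IV.I, 1219 and 1331 in the PcDC2 libraries, 1005 and 728 in P-IV.II, and 1281 and 928 in SPM. PcDC1 lay below every P-IV.I, PcDC2 and SPM library, and both PcDC2 libraries lay above both P-IV.II libraries, while the other replicated groups overlapped. The difference between PcDC2 and P-IV.II was 0.57 ± 0.31 on the log2 scale and did not pass (limma adjusted p = 0.232).

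B2m, the invariant light chain of class I, had 5644 FPKM in PcDC1, 2406 and 893 in P-IV.I, 1401 and 2329 in the PcDC2 libraries, 1890 and 1062 in P-IV.II, and 2525 and 923 in SPM. PcDC1 was far above the rest, and within each other group the libraries differed more than the groups did. Replicate 1 exceeded replicate 2 by 1.43 on the log2 scale in P-IV.I and by 1.45 in SPM. For all tested genes of 700 to 1000 bases, the length class of B2m, the median difference between the same libraries was 0.52 in P-IV.I and 0.81 in SPM. In P-IV.I and PcDC2 against P-IV.II and SPM, B2m was at 0.15 ± 0.45, or 0.26 after correction for length, and passed in neither fit (limma adjusted p = 0.835 and 0.534).

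**Figure D2:**
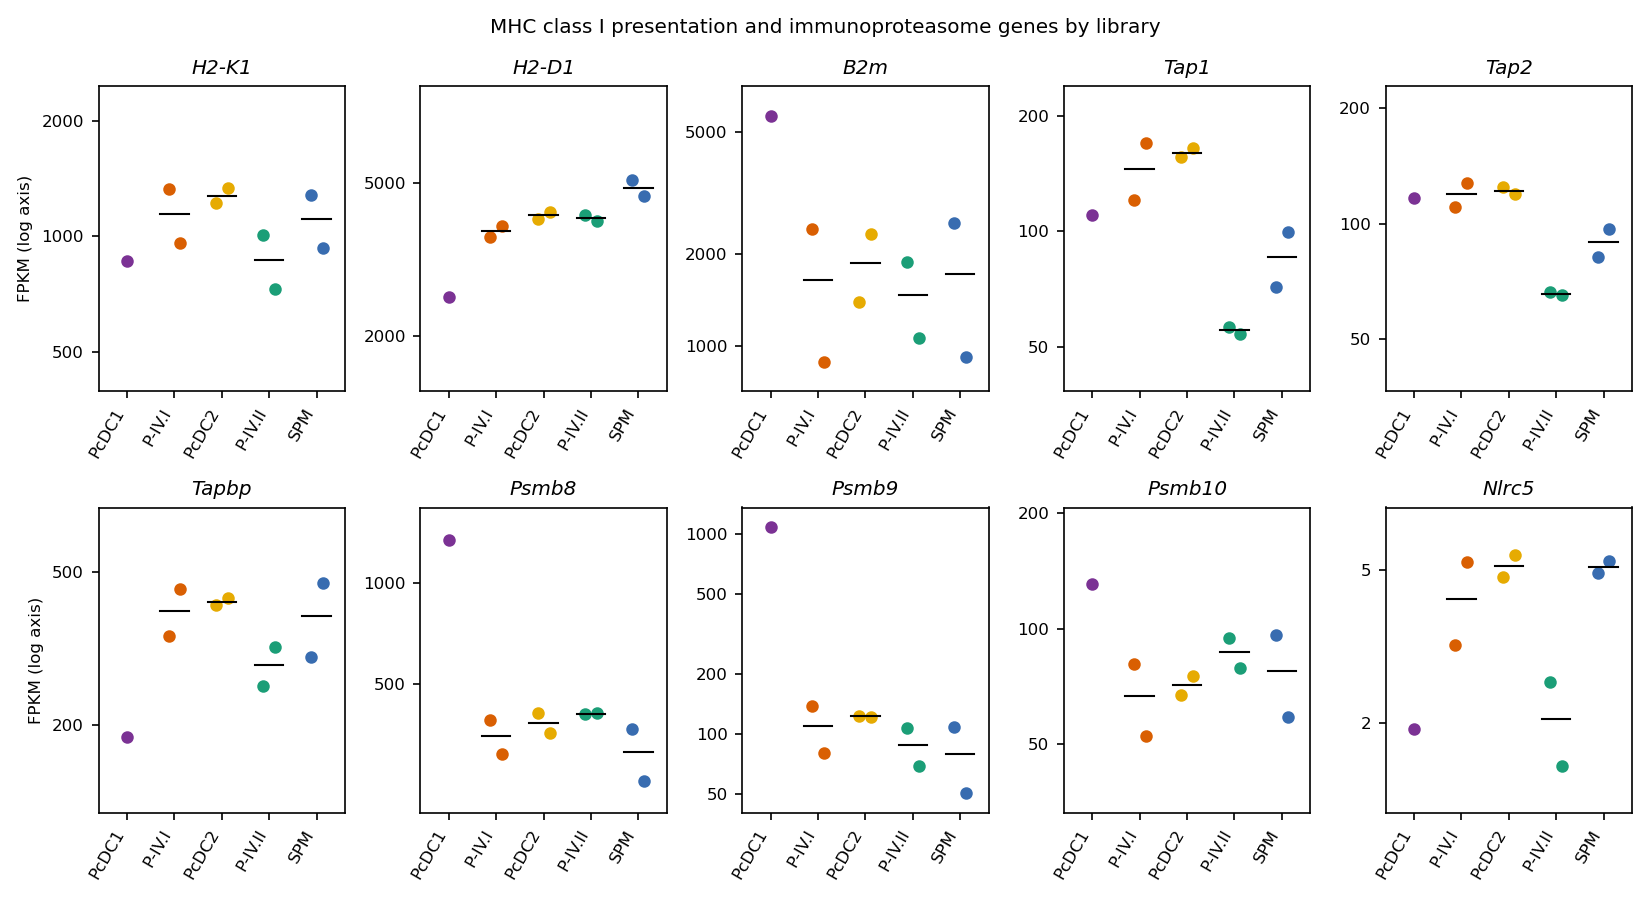
FPKM (vertical axes, log scale) of the 10 genes in every library (points), with the mean of the 2 libraries of a group as a bar, for PcDC1, P-IV.I, PcDC2, P-IV.II and SPM from left to right. Tap1 and Tap2 lie higher in P-IV.I and PcDC2 than in P-IV.II and SPM, at 121 to 170 FPKM against 54.0 to 99.9 for Tap1, and PcDC1 stands apart for B2m, Psmb8 and Psmb9, at 5644, 1350 and 1091 FPKM.

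Among the 10 genes, those of the peptide transporter differed between the pooled dendritic cells and the pooled macrophages, with the larger differences against P-IV.II. Tap1 and Tap2, the 2 chains of the TAP transporter, were higher in P-IV.I and PcDC2 together than in P-IV.II and SPM together, and every dendritic library lay above every macrophage library. Tap1 was higher by 1.14 ± 0.19 on the log2 scale (SE, 4 libraries against 4, limma adjusted p = 0.0032) and Tap2 by 0.65 ± 0.15 (adjusted p = 0.016). These were the only 2 of the 10 genes called in that comparison, in which 28.8% of all 10526 tested genes were called and 18.6% were called higher, and the libraries of 19.6% were higher without overlap, so the count of members is not above the background. The median log2 fold change was 0.31 over the 10 genes and 0.15 over all tested genes.

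Tap1 had 110 FPKM in PcDC1, 121 and 170 in P-IV.I, 156 and 165 in the PcDC2 libraries, 56.5 and 54.0 in P-IV.II, and 71.6 and 99.9 in SPM. PcDC2 had the highest mean, P-IV.I followed, and P-IV.II was lowest. P-IV.I against P-IV.II was 1.36 ± 0.27 (limma adjusted p = 0.018) and PcDC2 against P-IV.II was 1.52 ± 0.27 (adjusted p = 0.0058). PcDC2 against SPM was smaller, at 0.92 ± 0.27 (adjusted p = 0.046), and P-IV.I against SPM, at 0.75 ± 0.27, did not pass (adjusted p = 0.124). P-IV.I against PcDC2 was -0.16 ± 0.27 and their libraries overlapped. P-IV.II against SPM was -0.61 ± 0.27, with both P-IV.II libraries below both SPM libraries, and did not pass (adjusted p = 0.466).

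Tap2 had 116 FPKM in PcDC1, 111 and 128 in P-IV.I, 124 and 119 in the PcDC2 libraries, 66.3 and 65.3 in P-IV.II, and 82.0 and 97.0 in SPM. All 3 dendritic groups lay at one level and above every macrophage library. P-IV.I against P-IV.II was 0.85 ± 0.22 (limma adjusted p = 0.0496) and PcDC2 against P-IV.II was 0.88 ± 0.22 (adjusted p = 0.026). Against SPM, Tap2 did not pass in P-IV.I, at 0.41 ± 0.22 (adjusted p = 0.306), nor in PcDC2, at 0.45 ± 0.22 (adjusted p = 0.2).

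The Tap1 difference between dendritic cells and macrophages kept its call under every alternative setting tried, between 0.93 and 1.26, with adjusted p up to 0.0202. Tap2 lost its call after median-ratio rescaling, at 0.44 (adjusted p = 0.0819), and without P-IV.I replicate 2, PcDC2 replicate 1, PcDC2 replicate 2 or P-IV.II replicate 2, when its adjusted p reached 0.0697. Genes of 2000 to 3000 bases, the length class of Tap1, had a median difference of 0.11 in this comparison and those of 3000 to 5000 bases, the class of Tap2, one of 0.21. After correction for transcript length Tap1 was higher by 1.02 (adjusted p = 0.0013) and Tap2 by 0.46 (adjusted p = 0.019).

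Tapbp encodes tapasin, which bridges the transporter and the class I heavy chain during peptide loading. It had 186 FPKM in PcDC1, 341 and 451 in P-IV.I, 409 and 427 in the PcDC2 libraries, 253 and 319 in P-IV.II, and 300 and 467 in SPM. The P-IV.I and PcDC2 libraries lay above the P-IV.II libraries, while SPM replicate 2 was the highest of all. Dendritic cells minus macrophages was 0.31 ± 0.21 and did not pass (limma adjusted p = 0.306).

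**Figure D3:**
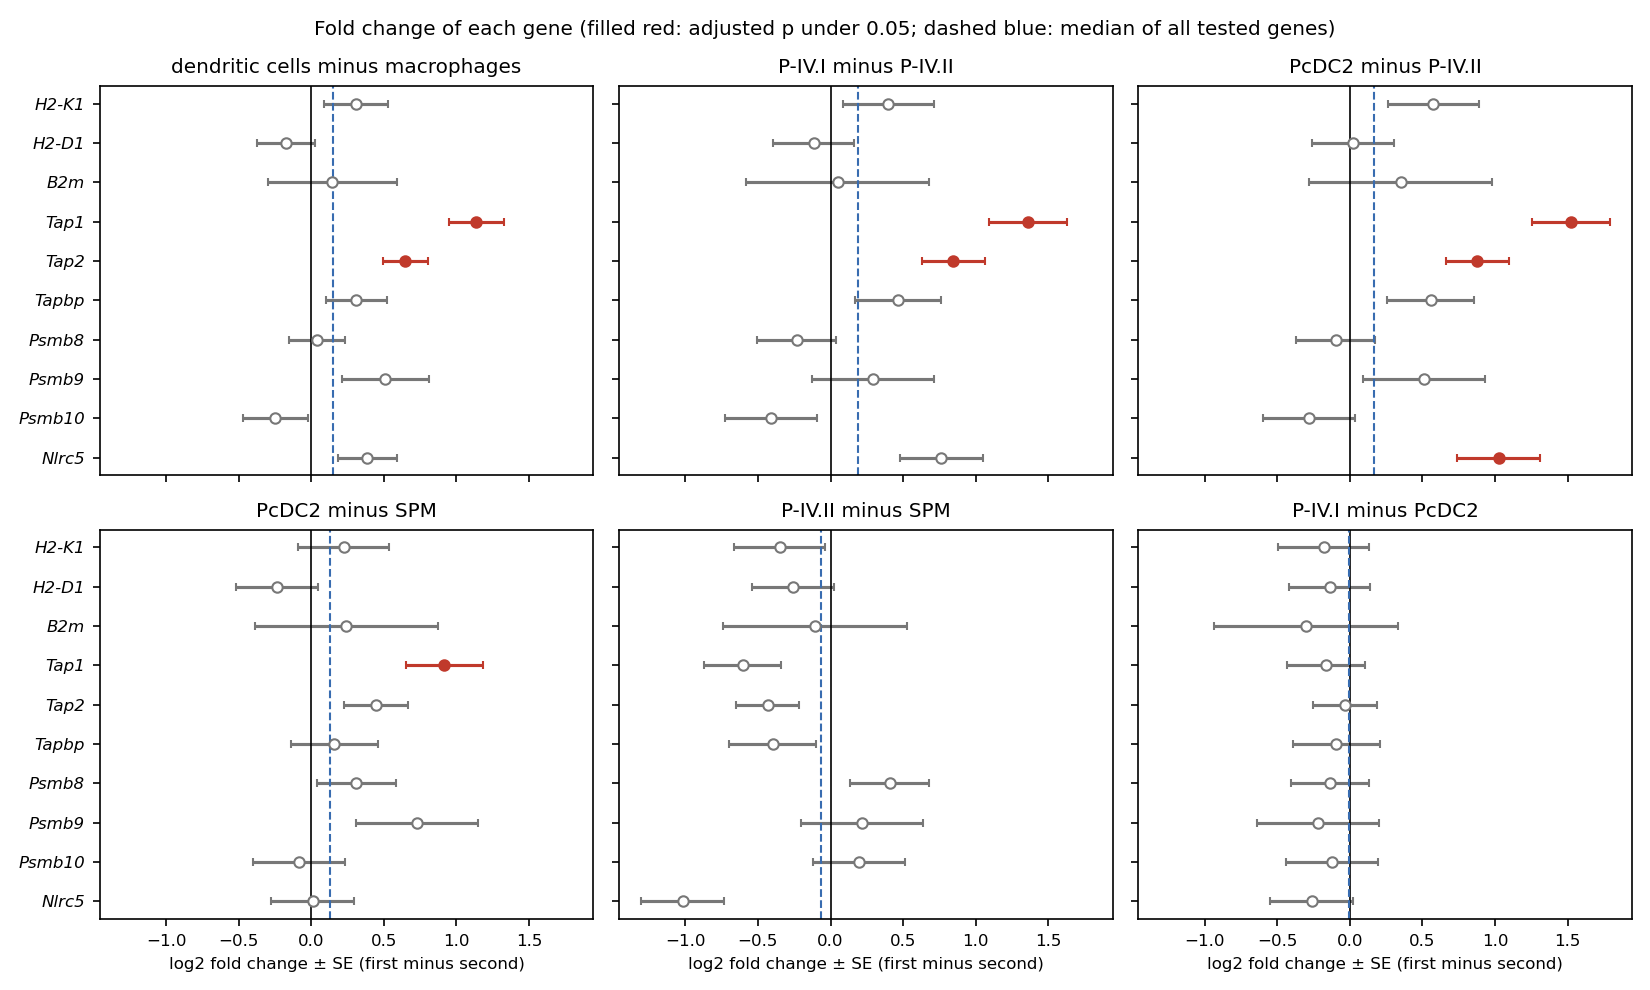
Log2 fold change with its SE (horizontal axes) of the 10 genes in 6 comparisons, each the first group minus the second, from the limma fit over all libraries. Filled red points passed at an adjusted p under 0.05 and the dashed blue line is the median of all tested genes: Tap1 passed in 4 of the 6 comparisons shown, Tap2 in 3 and Nlrc5 in 1.

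Within the CD11c+ CD115+ gate, P-IV.I against P-IV.II called Tap1 and Tap2 among the 10 genes, where 9.61% of all tested genes were called. PcDC2 against P-IV.II called Tap1, Tap2 and Nlrc5, with a background of 20.7%, and PcDC2 against SPM called Tap1, with a background of 19.7%. P-IV.I against PcDC2 called 0 members by limma, with 0 at an unadjusted p under 0.05 and 0.732% of all genes called. P-IV.I against SPM called 0, with 1 at an unadjusted p under 0.05 and 11% of all genes called, and P-IV.II against SPM called 0, with 1 at an unadjusted p under 0.05 and 1.14% called. These comparisons share libraries and 1 estimate of the spread. The interaction of these comparisons, P-IV.I against P-IV.II less PcDC2 against SPM, in the same fit called 0 of the 10 genes, with 0 at an unadjusted p under 0.05 and a background of 1.11%. The interaction was 0.44 ± 0.38 for Tap1 and 0.40 ± 0.31 for Tap2.

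Several of these calls rest on few libraries. Tap1 lost its call in P-IV.I against P-IV.II without P-IV.I replicate 2, P-IV.II replicate 1 or P-IV.II replicate 2, with adjusted p up to 0.106 over all alternatives, and Tap2 lost its own there when any 1 of the P-IV.I, PcDC2 or P-IV.II libraries was left out, with adjusted p up to 0.202. In PcDC2 against P-IV.II, Tap1 lost its call only without PcDC2 replicate 2 (adjusted p = 0.0578), and Tap2 without any 1 of the PcDC2 or P-IV.II libraries (adjusted p 0.0924 to 0.14). In PcDC2 against SPM, Tap1 lost its call without any 1 of the PcDC2 or P-IV.II libraries or SPM replicate 1, with adjusted p up to 0.224.

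Nlrc5, the class I transactivator, was the least abundant of the 10 genes. It had 1.93 FPKM in PcDC1, 3.19 and 5.23 in P-IV.I, 4.79 and 5.48 in the PcDC2 libraries, 2.56 and 1.55 in P-IV.II, and 4.92 and 5.26 in SPM. P-IV.II and PcDC1 were low, and SPM stood at the level of PcDC2, so Nlrc5 did not follow the division into dendritic cells and macrophages. PcDC2 against P-IV.II was 1.03 ± 0.29 (limma adjusted p = 0.039), PcDC2 against SPM was 0.01 ± 0.29, and P-IV.II against SPM was -1.02 ± 0.29 and did not pass (adjusted p = 0.205).

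Nlrc5 has the longest transcript of the set, in the class over 5000 bases, whose median difference in PcDC2 against P-IV.II was 0.59 over all tested genes. After correction for length the Nlrc5 difference was 0.45 and did not pass (adjusted p = 0.307). The call was also lost after median-ratio rescaling, after quantile normalization, with the filter on values above 0, and without PcDC2 replicate 1, PcDC2 replicate 2, P-IV.II replicate 2, SPM replicate 1 or SPM replicate 2.

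The immunoproteasome subunits did not separate the replicated groups, and none of the 3 passed in any of the 7 comparisons. Psmb8, which replaces Psmb5, had 1350 FPKM in PcDC1, 388 and 308 in P-IV.I, 406 and 355 in the PcDC2 libraries, 406 and 406 in P-IV.II, and 366 and 256 in SPM. PcDC1 lay far above the rest, and among the replicated groups both P-IV.II libraries lay above both P-IV.I and both SPM libraries. Dendritic cells minus macrophages, which leaves PcDC1 out, was 0.04 ± 0.19 (limma adjusted p = 0.9).

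Psmb9, which replaces Psmb6, had 1091 FPKM in PcDC1, 137 and 80.6 in P-IV.I, 123 and 122 in the PcDC2 libraries, 107 and 68.8 in P-IV.II, and 108 and 50.3 in SPM. PcDC2 lay above every macrophage library, while P-IV.I overlapped with them. Dendritic cells minus macrophages was 0.51 ± 0.30 and did not pass (limma adjusted p = 0.236).

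Psmb10, which replaces Psmb7, had 131 FPKM in PcDC1, 80.7 and 52.5 in P-IV.I, 67.2 and 75.1 in the PcDC2 libraries, 94.9 and 79.2 in P-IV.II, and 96.4 and 59.0 in SPM. P-IV.II was highest among the replicated groups, and the dendritic and macrophage libraries overlapped. Dendritic cells minus macrophages was -0.25 ± 0.22 (limma adjusted p = 0.445).

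A ratio to the replaced subunit compares the FPKM of the 2 transcripts within a library and does not measure the 2 proteasome forms. The Psmb9 to Psmb6 ratio was 4.34 in PcDC1, 1.98 and 1.37 in P-IV.I, 1.71 and 1.99 in the PcDC2 libraries, 1.03 and 0.657 in P-IV.II, and 1.29 and 0.943 in SPM. All 4 libraries of P-IV.I and PcDC2 lay above all 4 of P-IV.II and SPM. On the log2 scale the difference was 0.86, with an exact two-sided permutation p of 0.0286, the smallest that 4 against 4 libraries can give, and an adjusted p of 0.0857 over the 3 ratios, which does not pass. The permutation treats the 4 libraries of a side as alike, although they are 2 libraries from each of 2 sorted groups. Without both P-IV.I replicate 2 and SPM replicate 2 the difference was 0.97. Psmb9 falls in the class of 1000 to 1500 bases and Psmb6 in that of 700 to 1000, and the part of length in the ratio was not tested.

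The other ratios did not separate the groups. Psmb8 to Psmb5 was 6.03 in PcDC1, 5.22 and 6.95 in P-IV.I, 7.08 and 5.64 in the PcDC2 libraries, 4.26 and 5.67 in P-IV.II, and 4.56 and 5.98 in SPM. Its difference between dendritic cells and macrophages was 0.28 (exact permutation p = 0.171, adjusted 0.257). Psmb10 to Psmb7 was 0.660 in PcDC1 and averaged 1.3 ± 0.0631 in P-IV.I, 1.41 ± 0.0967 in PcDC2, 1.3 ± 0.0738 in P-IV.II and 1.62 ± 0.235 in SPM (SD, n = 2 each). Its difference was -0.10 (exact permutation p = 0.543, the same after adjustment).

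**Figure D4:**
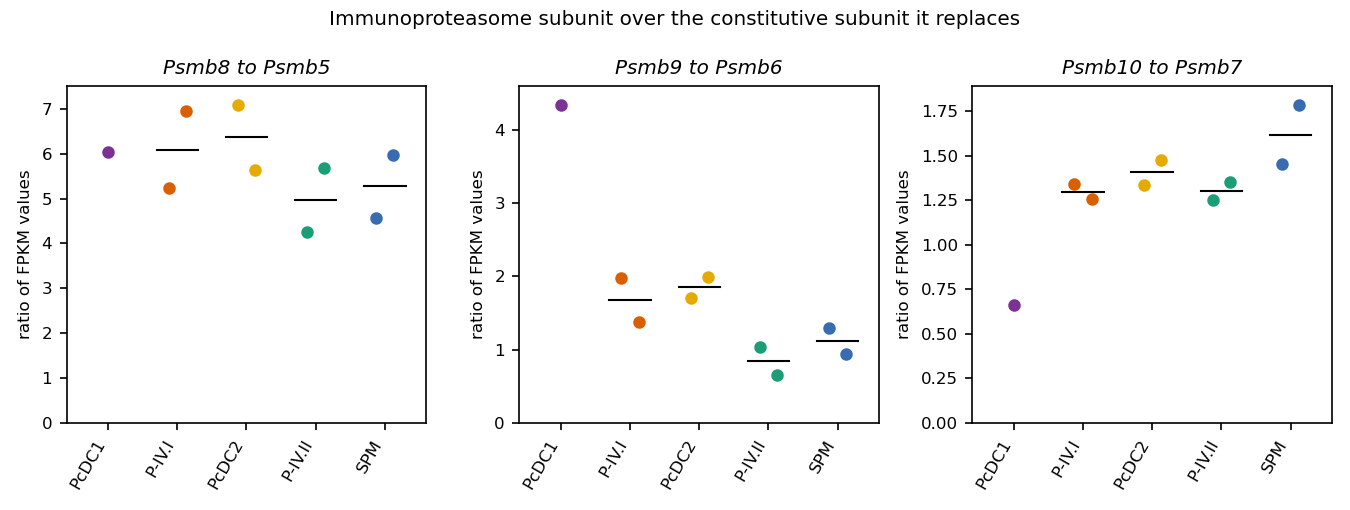
Ratio of FPKM values (vertical axes, from 0) of each immunoproteasome subunit to the constitutive subunit it replaces, in every library (points) with group means (bars), for PcDC1, P-IV.I, PcDC2, P-IV.II and SPM from left to right. For Psmb9 to Psmb6 the P-IV.I and PcDC2 libraries, at 1.37 to 1.99, lie above the P-IV.II and SPM libraries, at 0.657 to 1.29, and PcDC1 stands at 4.34.

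PcDC1 has 1 library, so its values carry no test and no replicate check. It held the highest Psmb8, Psmb9, Psmb10 and B2m of all 9 libraries and the lowest H2-D1 and Tapbp. Relative to the mean of PcDC2, Psmb9 was higher by 3.14 on the log2 scale, beside a median of 0.91 for all tested genes of its length class. Psmb8 was higher by 1.83 where its class had a median of 0.12.

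B2m, Psmb10 and Tap1 in PcDC1 lay near the median of genes of like length. B2m was higher than in PcDC2 by 1.64 and its class by 1.65, and Psmb10 by 0.87 and its class by 0.91. Tap1 had -0.54 beside -0.52 for its class. Others lay further off, and Tap2 stood at -0.06 beside -0.86, and Tapbp at -1.17 beside -0.52. H2-K1 was at -0.57 beside 0.12, H2-D1 at -0.71 beside -0.52 and Nlrc5 at -1.06 beside -0.74. The proteasome activator subunits Psme1 and Psme2 were higher by 2.13 and 2.76, beside 0.91 and 1.65 for their classes. Pomp, a chaperone of proteasome assembly, was higher by 3.06 beside 0.12. The constitutive subunits were higher too, by 1.88 for Psmb5, 1.90 for Psmb6 and 1.95 for Psmb7, beside 1.65, 1.65 and 0.91.

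The rest of the pathway was followed through lists of genes fixed by role, in the comparison of P-IV.I and PcDC2 with P-IV.II and SPM. The core and regulatory parts of the proteasome showed few calls, where 28.8% of all tested genes were called. Of the 3 constitutive catalytic subunits 0 passed, and Psmb5 averaged 59.2 ± 21.2 FPKM in P-IV.I, 60.1 ± 3.84 in PcDC2, 83.4 ± 16.6 in P-IV.II and 61.5 ± 26.5 in SPM (SD, n = 2 each). Psmb6 averaged 64.1 ± 7.70 FPKM in P-IV.I, 66.8 ± 7.63 in PcDC2, 104 ± 0.908 in P-IV.II and 68.5 ± 21.4 in SPM. Psmb7 averaged 50.9 ± 12.9 FPKM in P-IV.I, 50.5 ± 0.511 in PcDC2, 67.2 ± 12.3 in P-IV.II and 49.7 ± 23.5 in SPM. Of 11 structural subunits of the core particle 2 were lower, Psma7 at -0.87 ± 0.21 (limma adjusted p = 0.017) and Psma4 at -0.66 ± 0.19 (adjusted p = 0.035), and 9 did not pass. None of 19 subunits of the regulatory particle, 4 proteasome activators, 6 assembly factors and inhibitors or 6 cytosolic peptidases passed. Among these, Psme1 was at 0.35 ± 0.31, Psme2 at -0.14 ± 0.22 and Pomp at 0.15 ± 0.24. Psma7 lost its call in 3 of 8 fits with a library left out and Psma4 in 6, and Psma4 also after quantile normalization.

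Of 15 tested nonclassical and other class I chains, 6 were higher in the dendritic cells, 0 were lower and 9 did not pass, with a median of 0.58, beside 28.8% of all tested genes called and 18.6% called higher. H2-K2 averaged 41.2 ± 3.05 FPKM in P-IV.I, 53.8 ± 8.95 in PcDC2, 21.2 ± 18.9 in P-IV.II and 4.78 ± 3.94 in SPM, and was higher by 2.34 ± 0.47 (limma adjusted p = 0.0078). H2-Q6 was higher by 2.32 ± 0.58 (adjusted p = 0.019) and H2-T22 by 1.68 ± 0.42 (adjusted p = 0.019), each called in 5 of 8 fits with a library left out. Without both P-IV.I replicate 2 and SPM replicate 2 none of these 3 passed, with H2-K2 at an adjusted p of 0.0521. After correction for length H2-K2 was higher by 2.33 (adjusted p = 0.0058), H2-Q6 by 2.41 (adjusted p = 0.011) and H2-T22 by 1.64 (adjusted p = 0.021). These genes are near-copies of each other and of the classical chains, so reads may have been assigned to the wrong one.

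Class I-like molecules, which present other ligands or bind other cargo, moved in both directions, with 2 higher, 2 lower and 1 not passing of 5 tested. Over all tested genes 28.8% were called in this comparison and 18.6% were called higher. Procr, the endothelial protein C receptor, was higher by 1.49 ± 0.20 (limma adjusted p = 0.0011). It averaged only 1.88 FPKM in P-IV.I, 2.39 in PcDC2, 0.112 in P-IV.II and 0.0663 in SPM. Procr passed the filter on low values only through dendritic cell libraries, so its call is not independent of that filter. Cd1d1, which presents lipids to natural killer T cells, was lower at -1.67 ± 0.21 (adjusted p = 8.8e-04), and Mr1, which presents metabolites to mucosal-associated invariant T cells, at -1.12 ± 0.19 (adjusted p = 0.0032). Of 12 loading chaperones and trimming enzymes 1 was lower and 11 did not pass. That gene was Calr, the chaperone calreticulin, at -0.57 ± 0.18 (adjusted p = 0.049), and it lost its call whichever library was left out, with adjusted p up to 0.196.

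Genes for transcription factors of class I and class II promoters were higher or did not pass. Of 17 tested, 7 were higher, 0 lower and 10 not passing, with a median of 0.59, where 18.6% of all tested genes were called higher. Nfkb1, an NF-kappaB subunit, averaged 89.5 ± 3.83 FPKM in P-IV.I, 161 ± 17.6 in PcDC2, 15 ± 2.15 in P-IV.II and 20.5 ± 0.160 in SPM, and was higher by 2.71 ± 0.16 (limma adjusted p = 2.1e-05). Ciita, the class II transactivator related to Nlrc5, had 30.5 FPKM in PcDC1 and averaged 105 ± 10.9 in P-IV.I, 152 ± 13.8 in PcDC2, 32.5 ± 5.19 in P-IV.II and 44.4 ± 2.72 in SPM. It was higher by 1.70 ± 0.16 (adjusted p = 1.8e-04). Rfx5, part of the complex that binds class I and class II promoters, had 1.26 FPKM in PcDC1 and averaged 8.76 ± 2.20 in P-IV.I, 11.4 ± 0.133 in PcDC2, 2.71 ± 0.962 in P-IV.II and 3.61 ± 1.08 in SPM, higher by 1.42 ± 0.21 (adjusted p = 0.0020).

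Of the 5 interferon regulatory factors on that list, Irf7 and Irf8 were higher and Irf1, Irf2 and Irf9 did not pass. Irf8 had 1365 FPKM in PcDC1 and averaged 84.0 ± 54.1 in P-IV.I, 34.4 ± 25.9 in PcDC2, 7.17 ± 3.39 in P-IV.II and 18.9 ± 0.979 in SPM. It was higher in P-IV.I and PcDC2 by 1.94 ± 0.44 (limma adjusted p = 0.013) and did not pass without both P-IV.I replicate 2 and SPM replicate 2 (adjusted p = 0.0671). Irf1, an interferon-inducible factor of class I promoters, had 29.4 FPKM in PcDC1 and averaged 97.0 ± 8.76 in P-IV.I, 111 ± 47.3 in PcDC2, 84.6 ± 76.1 in P-IV.II and 66.5 ± 3.25 in SPM, and did not pass at 0.61 ± 0.43 (adjusted p = 0.327). Its difference was 0.08 without P-IV.II replicate 2 and 1.15 without P-IV.II replicate 1, where it passed (adjusted p = 0.0165). Irf7, Irf2 and Irf9 are named after their values were seen. Irf7 had 34.1 FPKM in PcDC1 and averaged 21.3 ± 2.37 in P-IV.I, 24.7 ± 5.55 in PcDC2, 5.16 ± 1.02 in P-IV.II and 32.0 ± 8.25 in SPM, higher in P-IV.I and PcDC2 together by 0.75 ± 0.20 (limma adjusted p = 0.026) although the SPM mean lay above both.

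Of 9 interferon receptors and kinases 3 were higher and 6 did not pass, a share called near the 28.8% of all tested genes. Jak2, a kinase of the interferon gamma receptor, was higher by 1.95 ± 0.21 (limma adjusted p = 3.0e-04), Tyk2, a kinase of the type I interferon receptor, by 0.87 ± 0.21 (adjusted p = 0.017), and the feedback inhibitor Socs3 by 1.74 ± 0.53 (adjusted p = 0.042). Socs3 kept its call in 2 of 8 fits with a library left out, and it was lost after median-ratio rescaling and correction for length. Tyk2 lost its call after median-ratio rescaling (adjusted p = 0.0579) and in 2 of those 8 fits.

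**Figure D5:**
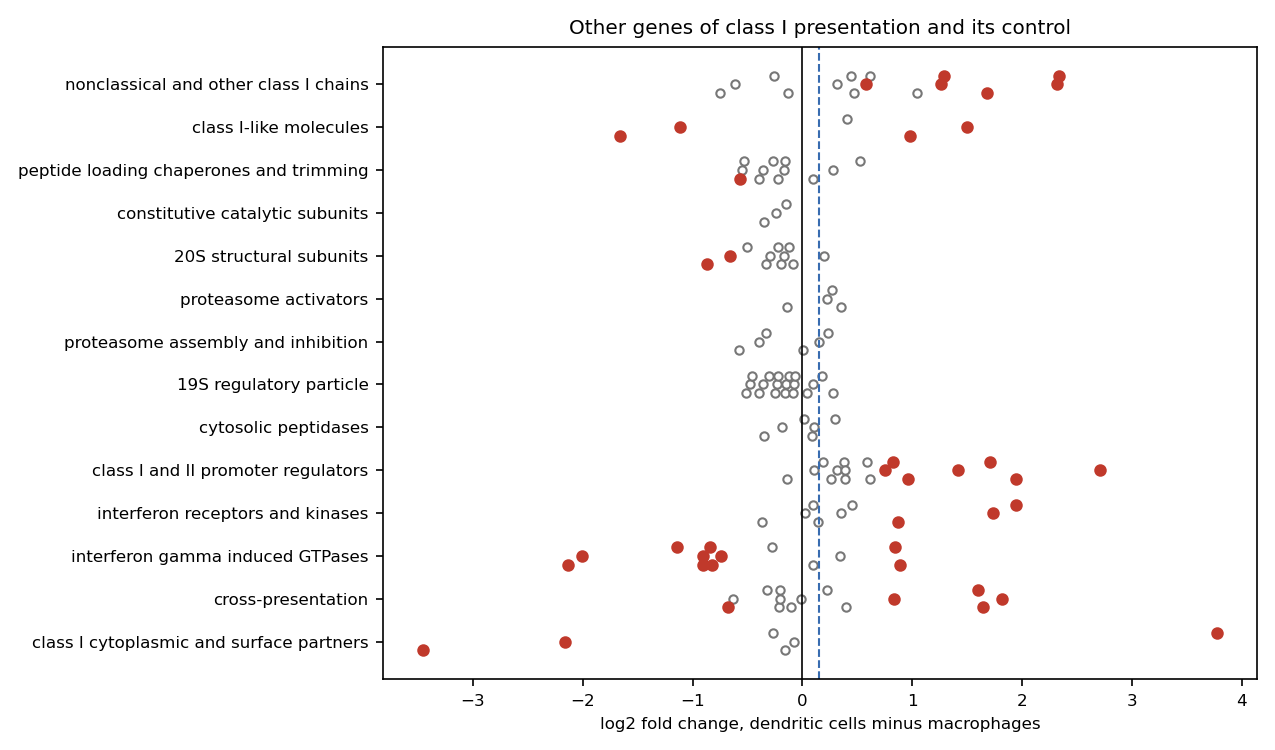
Log2 fold change in P-IV.I and PcDC2 against P-IV.II and SPM (horizontal axis) of every tested gene in 14 lists of class I presentation and its control, with filled red points for an adjusted p under 0.05 and a dashed blue line at 0.15, the median of all tested genes. The proteasome lists hold 2 called genes, both lower, the promoter regulators 7, all higher, and the interferon gamma induced GTPases 8 lower and 2 higher.

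The genes whose pattern over the 9 libraries was most like that of a member differed between members. Likeness was measured as Pearson's r of log2(FPKM + 1) over all 9 libraries, among tested genes with a mean FPKM of at least 5. The libraries differ in the length profile described above, and the genes named are those with the highest r of all. PcDC1 stood far above every other library for Psmb8, Psmb9 and B2m, at 1350, 1091 and 5644 FPKM. A high r for these members can therefore reflect that 1 library, and r without PcDC1 was not tested. Smad1 (r = 0.98) and Pld2 (r = 0.98) were closest to Tap1, and Eps15 (r = 0.97) and Pld2 (r = 0.97) to Tap2. Fkbp3 and Tsta3 (r = 1.00 and 0.99) were closest to Psmb8, Mvb12a and Park7 (r = 1.00 and 0.99) to Psmb9, and Ppib and Cox4i1 (r = 0.99 and 0.98) to Psmb10. For B2m they were Rps29 and Tmem179b (r = 0.98 each), for Tapbp Ltn1 and Ap1b1 (r = 0.99 and 0.98), for H2-K1 Ccdc50 and Map4 (r = 0.97 each), for H2-D1 Mfhas1 and Oas1a (r = 0.96 each) and for Nlrc5 Tgfbr2 and Plekhm1 (r = 0.93 and 0.92). Among the members, Tap1 and Tap2 had r = 0.97 with each other. Tap1 and Psmb9, which start from the same 225-base segment shown above, had r = 0.16, with PcDC1 high for Psmb9 and not for Tap1.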

How the data were processed

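Cells were sorted and libraries were built with a SMARTer low input kit and sequenced on an Illumina NovaSeq, per the labels. HISAT2 2.1.0, StringTie 1.3.4d, Cufflinks, bcl2fastq 1.8.4 and build mm10 are listed, without roles, per the submitters' processing notes. The authors deposited FPKM values that they call normalized, and the normalization step is not given in the sources used here. Values were transformed to log2(FPKM + 1), so fold changes of low genes are understated. The 10526 genes that reached an FPKM of 1 in 2 or more libraries were fitted over all 9 libraries in R 4.3.3 with limma 3.58.1 (lmFit, contrasts.fit, eBayes with a variance trend, 4 residual degrees of freedom plus a prior of 4.02). Dendritic cells here are P-IV.I and PcDC2, macrophages are P-IV.II and SPM, and PcDC1 entered no contrast. P-values are two-sided and adjusted by Benjamini-Hochberg within each comparison at 0.05. The fit was tested on simulated data.

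The members and gene lists were chosen with earlier results of these data known. Named genes were all members, per list up to 3 passing genes with the largest change or else up to 2 abundant genes, Psmb5, Psmb6, Psmb7, Irf1, Rfx5 and Ciita, and per member the 2 most alike genes. PcDC1 values of further genes were added beside members. 1 further gene is not reported here and was left out of the counts. Coordinates, transcript lengths and promoters come from RefSeq and GENCODE annotation of GRCm38, which mm10 names. Transcript length was matched for 99.1% of tested genes. Alternatives were pseudocounts of 0.1 and 5, filters of a value above 0 or FPKM of at least 5, quantile normalization, median-ratio rescaling, a constant prior variance, a replicate block and leaving out each library. Chosen after seeing the data were a correction for transcript length (a lowess per library), leaving out PcDC1, and leaving out both P-IV.I replicate 2 and SPM replicate 2.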

Additional observations from a re-analysis of the deposited data

How the results depend on the processing

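The number of members called in P-IV.I against P-IV.II was 1 with a pseudocount of 5, after median-ratio rescaling, with a constant prior variance and after correction for transcript length, 0 without both P-IV.I replicate 2 and SPM replicate 2, and 0 to 2 with 1 library left out. In PcDC2 against P-IV.II it was 1 after median-ratio rescaling and 0 to 3 with 1 library left out, and in PcDC2 against SPM 0 after median-ratio rescaling and with the filter on values above 0, and 0 to 1 with 1 library left out. In dendritic cells minus macrophages it was 1 after median-ratio rescaling and 1 to 2 with 1 library left out. None of the genes whose direction turned under a setting had passed. In dendritic cells minus macrophages, H2-D1 was 0.24 after quantile normalization, B2m -0.0633 after median-ratio rescaling and -0.22 to 0.51 with 1 library left out, Psmb8 -0.17 after median-ratio rescaling, -0.00747 without both P-IV.I replicate 2 and SPM replicate 2 and -0.0905 to 0.17 with 1 library left out, and Nlrc5 -0.0177 after correction for length. Nlrc5 in PcDC2 against SPM was -0.14 after median-ratio rescaling, -0.18 after quantile normalization, -0.31 after correction for length and -0.0723 to 0.0897 with 1 library left out, and in P-IV.I against SPM it was -0.54 to 0.0331 with 1 library left out. Among other genes Pomp was -0.0524 after median-ratio rescaling and -0.038 to 0.35 with 1 library left out, Psme2 -0.31 to 0.0353, Psmd2 -0.44 to 0.12 and Psmb7 -0.39 to 0.10 with 1 library left out, and the log2 Psmb10 to Psmb7 ratio 0.0352 without both libraries. The cause of these changes was not tested. Median-ratio rescaling brought the median of all genes in dendritic cells minus macrophages from 0.15 to -0.02.

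The labels do not tie same-numbered libraries to each other. Same-numbered deviations correlated at 0.34 for P-IV.I with P-IV.II, 0.55 for P-IV.I with SPM and 0.71 for P-IV.II with SPM, and at -0.28 to 0.05 in the pairs with PcDC2, so the numbers were not taken as pairs. With a replicate block the members called were 0 in P-IV.I against PcDC2, 2 in P-IV.I against P-IV.II, 0 in P-IV.I against SPM, 3 in PcDC2 against P-IV.II, 1 in PcDC2 against SPM, 0 in P-IV.II against SPM and 2 in dendritic cells minus macrophages. Over all genes, P-IV.I against PcDC2 called 77 genes, 143 with the block, 14 without both libraries and 15 to 54 with 1 library left out. P-IV.I against P-IV.II called 1012, against 1607 with the block, 516 without both and 366 to 1006. P-IV.I against SPM called 1157, against 365 without both and 555 to 1131, and PcDC2 against SPM 2069, against 1221 without both and 1036 to 2032. PcDC2 against P-IV.II called 2183 (867 to 2210 with 1 library left out) and dendritic cells minus macrophages 3036 (1895 to 2677). P-IV.II against SPM called 120, against 53 with a pseudocount of 0.1, 71 and 77 with the filters of a value above 0 and FPKM of at least 5, 193 with the block, 3 without both and 12 to 63 with 1 library left out. With 2 libraries per group and unknown depth, a difference that missed the threshold may still exist.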

Other observations

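Most interferon gamma induced GTPases, which defend against intracellular pathogens, ran the other way from the transporter when the groups were pooled. Of 13 tested in P-IV.I and PcDC2 against P-IV.II and SPM, 8 were lower, 2 were higher and 3 did not pass by limma. Their median was -0.83 beside 0.15 for all tested genes, of which 28.8% were called and 18.6% were called higher. Gbp3 had 3.28 FPKM in PcDC1 and averaged 45.1 ± 10.5 in P-IV.I, 10.9 ± 2.52 in PcDC2, 85.6 ± 23.2 in P-IV.II and 103 ± 23.8 in SPM (SD, n = 2 each), a difference of -2.01 ± 0.22 (limma adjusted p = 3.9e-04). Gbp7 was lower at -2.13 ± 0.29 (adjusted p = 0.0012) and Ifi47 at -1.14 ± 0.19 (adjusted p = 0.0029), and all 3 kept their calls with any 1 library left out. The 2 that were higher were Tgtp1, at 0.89 ± 0.19, and Tgtp2, at 0.84 ± 0.19. These near-identical neighbours may share reads. The pooled difference was not shared by every pair of groups. P-IV.I against P-IV.II called 2 of the 13 higher and 0 lower, with a median of -0.17 and 9.61% of all tested genes called. PcDC2 against SPM called 8 lower and 0 higher, with a median of -1.42 and 19.7% called. P-IV.II against SPM called 1 lower, with a median of -0.82 and 1.14% called. Igtp averaged 14.7 FPKM in P-IV.I, 13.3 in PcDC2, 16.5 in P-IV.II and 40.8 in SPM.

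Of 14 cross-presentation genes 4 were higher, 1 lower and 9 not passing by limma, with a median of -0.05 beside 0.15 for all tested genes, of which 18.6% were called higher and 28.8% in either direction. Clec9a, a receptor for dead cell antigen, had 68.7 FPKM in PcDC1 and averaged 6.55 ± 0.365 in P-IV.I, 3.47 ± 0.209 in PcDC2, 0.932 ± 0.340 in P-IV.II and 0.914 ± 0.141 in SPM, higher in P-IV.I and PcDC2 by 1.60 ± 0.17 (adjusted p = 2.8e-04). Wdfy4, which type 1 dendritic cells need for cross-presentation, had 94.5 FPKM in PcDC1 and was higher by 1.82 ± 0.45 (adjusted p = 0.019), with the call lost in 3 of 8 fits with a library left out. Rab43, a vesicle GTPase, was higher by 1.65 ± 0.31 (adjusted p = 0.0056). Among 6 tested receptors from families that include class I binders, 1 was higher, 2 were lower and 3 did not pass. Whether each of them binds class I was not examined. Klra17, a lectin-like receptor of the Ly49 family, was higher by 3.78 ± 0.29 (limma adjusted p = 7.1e-05). It averaged 11.5 FPKM in P-IV.I, 22.8 in PcDC2, 0.232 in P-IV.II and 0.143 in SPM. Klra17 also passed the filter on low values only through dendritic cell libraries. Its relative Klra2 was lower at -3.46 ± 0.26 (adjusted p = 5.7e-05) and the inhibitory receptor Lilrb4a at -2.16 ± 0.19 (adjusted p = 1.2e-04). Natural killer and T cell markers, which would come with some Ly49 transcripts, summed to 10.4 to 16.2 FPKM in P-IV.I and 23.9 to 25.5 in PcDC2. They summed to 3.79 to 4.72 in P-IV.II and 3.15 to 6.21 in SPM. Cd4 made up much of the dendritic sums, with averages of 8.30 FPKM in P-IV.I and 9.98 in PcDC2. Cd3e averaged 2.65 in P-IV.I, 6.62 in PcDC2, 1.71 in P-IV.II and 2.19 in SPM. The natural killer markers Ncr1 and Klrb1c averaged at most 0.188 FPKM in any group. The part of such cells in the Klra values was not tested.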
